A study of Homo sapiens with 6 samples.

Results

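Kinesins are motor proteins that use ATP to move along or reshape microtubules. The set described here held 35 genes of 24305 in the deposited tables, chosen by symbol: motor genes of the KIF and KIFC families, the kinesin-2 subunit KIFAP3 and the kinesin light chains KLC1, KLC2 and KLC4. By textbook function, 12 were classed as mitotic, 16 as cargo-transport and 7 as ciliary, centriolar or microtubule-end kinesins. All 35 passed the filter on low counts and lay among the 14452 genes tested, so no member was left out. The libraries measured total RNA of DU 145, a long-established human line of castration-resistant prostate cancer, which the series design calls deficient in homologous recombination repair. Cells were exposed for 48 h to talazoparib, a drug that inhibits and traps PARP1 and PARP2 on DNA (n = 3 libraries), or to the control, labelled "DMOS" and read as the solvent DMSO (n = 3 libraries). The labels of the libraries give no dose. Both groups were the same single line, and the labels do not name separate cultures for the replicates, so the p-values describe only how these 6 libraries vary, which may be technical variation.

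In a dividing cell, mitotic kinesins build the bipolar spindle, move and align chromosomes and complete the cut between daughter cells, and many of them are made mainly in G2 and mitosis. Repressor complexes hold many such genes silent earlier in the cycle through a promoter element called CHR, often beside CCAAT boxes bound by NF-Y. Transport kinesins instead carry vesicles, mitochondria and other cargo toward the cell edge throughout the cycle, with heavy chains as motors and light chains or accessory subunits as cargo adaptors. The question the design poses is how the drug changes the transcriptome of this line, and the comparison here sets the mitotic members beside the transport members.

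Every mitotic member that fell with talazoparib held the CHR letters in its promoter window, and 4 promoters are shown for that reason, 2 from genes that fell and 2 from genes that were called higher. RefSeq windows of GRCh38.p14, from 250 bases before to 50 after the start, were matched for 28 of the 35 genes. No window was available here for KIF13B, KIF21B, KIF27, KIFC2, KIFC3, KLC2 and KLC4, so their promoters were not searched. Of each shown window, 150 bases before and 20 after the start are printed 5′ to 3′ on the gene's strand. Capitals mark TTTGAA (or its reverse complement TTCAAA), searched as the CHR, and CCAAT (or ATTGG). KIF14 (chr1:200620732-200620901, minus strand) and KIF23 (chr15:69414199-69414368, plus strand) fell. KIFC1 (chr6:33391673-33391842, plus strand) and KIF2C (chr1:44739687-44739856, plus strand) were called higher. In the stretch shown KIFC1 has both of these sets of letters and KIF2C has neither. Only these exact letters were searched, so KIF2C may hold another spelling of either element.
KIF14: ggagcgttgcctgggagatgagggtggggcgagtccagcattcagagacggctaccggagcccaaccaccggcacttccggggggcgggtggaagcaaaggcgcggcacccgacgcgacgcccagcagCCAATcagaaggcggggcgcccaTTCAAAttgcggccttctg
KIF23: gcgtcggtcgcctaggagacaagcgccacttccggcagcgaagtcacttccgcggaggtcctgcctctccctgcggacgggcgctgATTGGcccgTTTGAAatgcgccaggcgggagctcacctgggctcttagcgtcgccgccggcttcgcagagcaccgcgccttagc
KIFC1: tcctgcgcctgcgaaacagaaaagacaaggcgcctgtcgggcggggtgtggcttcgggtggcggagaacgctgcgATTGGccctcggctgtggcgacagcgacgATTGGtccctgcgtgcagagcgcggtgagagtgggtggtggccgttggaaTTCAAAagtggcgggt
KIF2C: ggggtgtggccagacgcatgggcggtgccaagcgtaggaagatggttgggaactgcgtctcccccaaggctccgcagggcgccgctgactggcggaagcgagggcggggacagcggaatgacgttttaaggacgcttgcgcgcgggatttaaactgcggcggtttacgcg

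Over the whole 300-base windows and both strands, the CHR letters TTTGAA were found in 9 of 12 mitotic members, against 15.2% of the 35116 promoters of the RefSeq table. They were in 8 of the 8 mitotic members that fell and in 1 of the 4 that did not, KIFC1. The higher call of KIFC1 was kept in 7 of 21 alternative settings. With the GC and length trend removed KIFC1 was called lower, at a log2 fold change of -0.14. Among the transport members with a window, 1 of 11 held them, KIF5B, and among the ciliary, centriolar and microtubule-end members 0 of 5 did. All members of these other classes that fell had a window, and KIF5B was the only one of them with the letters. The share among all genes that fell was not counted, and whether the element had a part in any fall was not tested. CCAAT was found in 10 of 12 mitotic and 3 of 11 transport members, against 34.6% of all promoters. Both motifs stood in 8 of 12 mitotic members, in 1 of 11 transport members and in 5.9% of all promoters, and no match of one overlapped the other. KIF15 was the mitotic member that fell with CHR letters and no CCAAT. Positions count the start base as 1. The CHR match began at position -55 in KIF23, -35 in KIF15, -34 in KIF4A, -28 in KIF11, -10 in KIF18A, 2 in KIF14 and 3 in KIF18B. KIF20B had 2 matches after the start, at positions 25 and 31. In KIF5B it began further away, at position -140. A match of letters is a description of the window and not a measured binding site, and other spellings of the 2 elements were not searched.

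Library depth was even, with 39123997 counts in the smallest and 39585727 in the largest. In all 3 libraries of each group the epithelial keratins KRT8 and KRT18 were abundant (583 ± 61.5 and 526 ± 70.0 CPM in control, SD, n = 3), while EPCAM (4.74 ± 0.48) and CDH1 (1.37 ± 0.38) were low. KRT7 rose from 428 ± 47.6 to 846 ± 47.1 CPM (edgeR adjusted p = 1.04e-05) and KRT19 from 41.8 ± 4.35 to 91.4 ± 8.01 (edgeR adjusted p = 9.02e-06), and both were also called higher after correction for GC content and length. CPM here are read counts relative to the TMM-adjusted library size. The leucocyte genes PTPRC and CD3E and the fibroblast genes COL1A2 and DCN had 0 counts in every library, the endothelial genes PECAM1, VWF and CDH5 had at most 18, and the myeloid-associated CD68 rose from 25.9 ± 1.77 to 66.2 ± 4.52 CPM. COL3A1 was at 22.1 ± 1.10 CPM in control and 16.8 ± 2.89 with talazoparib. Whether RNA of another cell type had a part in any kinesin result was not tested. Across all genes, control replicate 1 was the lowest control for 3483 of the 4327 genes that fell.

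With talazoparib, 18 of the 35 kinesin genes fell, 8 rose and 9 did not pass the test (edgeR's quasi-likelihood test, Benjamini-Hochberg adjusted p under 0.05 over all genes tested). Of all genes tested, 29.9% fell and 26.8% rose. The median log2 fold change was -0.28 over the 35 genes and 0.00 over all genes. The CPM of the 3 talazoparib and 3 control libraries did not overlap for 27 of the 35, against 64.4% of all genes. Of the members, 11 fell over 2-fold and 0 rose over 2-fold, where 9.75% of all genes fell and 2.75% rose by that much. Control replicate 1 was the lowest of the 3 controls in 18 of the 18 members that fell. Without that library, 8 mitotic and 8 transport members were called lower.

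**Figure D1:**
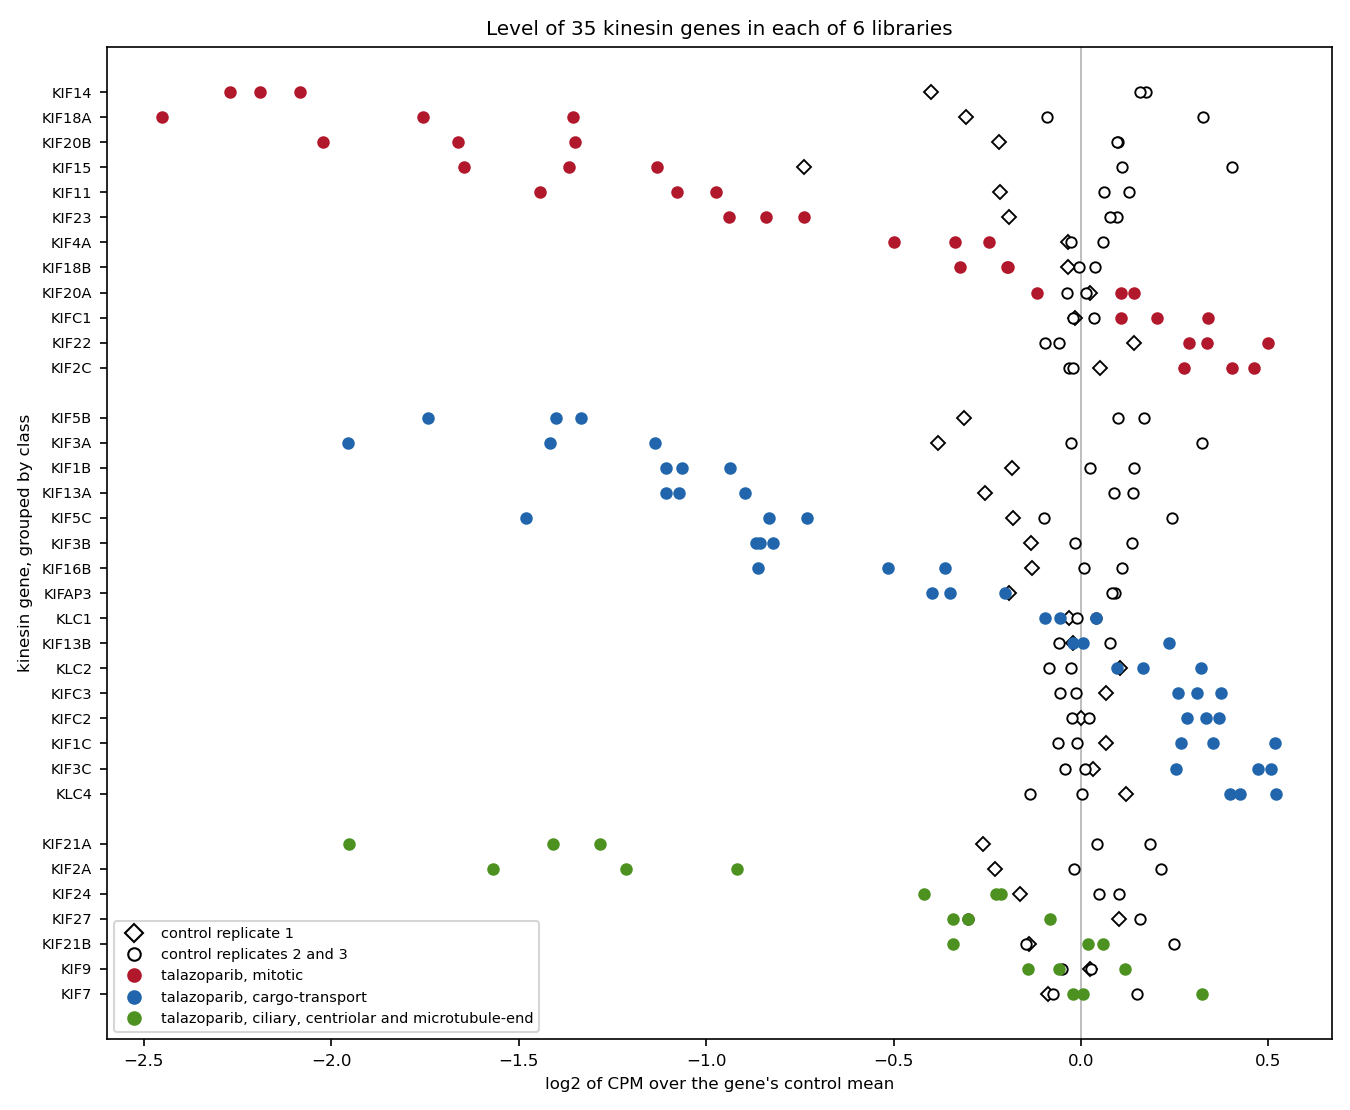
Level of each kinesin gene in each library, as log2 of its CPM over the gene's control mean (x axis), with genes grouped by class and ordered by fold change (y axis). Open symbols are controls, with control replicate 1 as a diamond, and filled symbols are talazoparib libraries. The filled points of KIF14, KIF18A and KIF20B lie far to the left of all controls, and those of KIF2C and KLC4 lie to the right. Those of KIF20A lie on both sides of its controls.

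Mitotic kinesins split into members that fell steeply, members that fell slightly and abundant members that rose slightly or did not pass the test. Of the 12, 8 fell, 3 rose and 1, KIF20A, missed the threshold, where 29.9% of all genes tested fell and 26.8% rose. The median log2 fold change of the 12 was -0.60, in a range from -2.18 to 0.38. In bulk RNA, fewer cells in G2 or mitosis and less mRNA per such cell cannot be told apart.

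Among motors that build and hold the spindle, KIF11 (Eg5), the kinesin-5 that slides antiparallel microtubules to separate the poles, had 42.4, 53.9 and 51.5 CPM in the controls and 23.4, 18.1 and 25.1 CPM with talazoparib. All 3 treated libraries lay below all controls. Its log2 fold change was -1.15 ± 0.13 (SE, edgeR adjusted p = 3.33e-05), a 2.22-fold fall. KIF15, a kinesin-12 that can stand in for KIF11 at the spindle, had 4.95, 8.91 and 10.9 CPM in control and 3.20, 3.77 and 2.64 CPM with the drug. The groups did not overlap, but the lowest control was 4.95 and lay close to the highest treated library. KIF15 fell by 1.37 ± 0.26 on the log2 scale (SE, edgeR adjusted p = 0.00111). KIFC1 (HSET), the minus-end kinesin-14 that pulls poles inward and clusters extra centrosomes, moved the other way, with 168, 167 and 174 CPM in control and 195, 215 and 183 CPM with talazoparib. Its treated libraries were all above the controls, and its log2 fold change was small, 0.22 ± 0.08 (SE, edgeR adjusted p = 0.0284). That call was lost on leaving out any of the 3 controls, talazoparib replicate 1 or talazoparib replicate 2, with log2 fold changes of 0.16 to 0.27 over the libraries left out.

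Chromosome-moving kinesins included relatives that moved by very different amounts or in opposite directions. KIF18A, the kinesin-8 that damps chromosome oscillation at the metaphase plate, had 5.41, 8.37 and 6.27 CPM in control and 1.98, 1.22 and 2.61 CPM with talazoparib. Every treated library was below every control, with a log2 fold change of -1.78 ± 0.26 (SE, edgeR adjusted p = 0.000177), a 3.44-fold fall. Its paralog KIF18B, which shortens astral microtubules, had 98.6, 101 and 104 CPM in control and 88.1, 88.2 and 80.8 CPM with talazoparib. The groups were separate but close, and KIF18B fell by 0.24 ± 0.08 on the log2 scale (SE, edgeR adjusted p = 0.017). KIF4A, a chromokinesin that also organises the central spindle, had 70.4, 70.9 and 75.2 CPM in control and 60.9, 57.2 and 51.1 CPM with talazoparib. It fell 1.28-fold (edgeR adjusted p = 0.00386), with no overlap. KIF22 (Kid), the chromokinesin that pushes chromosome arms outward, had 166, 141 and 145 CPM in control and 190, 213 and 184 CPM with the drug. All treated libraries were higher, at a log2 fold change of 0.38 ± 0.09 (SE, edgeR adjusted p = 0.00279). KIF2C (MCAK), the kinesin-13 that depolymerises microtubules at centromeres to correct faulty attachments, had 142, 134 and 135 CPM in control and 182, 189 and 166 CPM with talazoparib. It rose by 0.38 ± 0.08 on the log2 scale (SE, edgeR adjusted p = 0.00107), and its groups did not overlap.

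Kinesins of the midzone and of cytokinesis ranged from the largest fall of the 35 to no change past the test. KIF14, which recruits citron kinase to the midbody and lies at chr1:200551497-200620734 on the minus strand (GENCODE 29, GRCh38), had 12.97, 19.3 and 19.1 CPM in control and 3.75, 4.04 and 3.55 CPM with talazoparib. The treated libraries lay within a narrow band far below all controls. It fell by 2.18 ± 0.17 on the log2 scale (SE, edgeR adjusted p = 6.33e-06), a 4.53-fold fall. KIF20B (MPP1), a kinesin-6 needed for abscission, had 9.93, 12.4 and 12.3 CPM in control and 4.53, 2.84 and 3.65 CPM with talazoparib. The groups did not overlap and it fell 3.14-fold (edgeR adjusted p = 2.43e-05). KIF23 (MKLP1), the motor of the centralspindlin complex, had 91.9, 112 and 111 CPM in control and 58.7, 54.8 and 62.9 CPM with the drug. It fell by 0.84 ± 0.09 on the log2 scale (SE, edgeR adjusted p = 2.76e-05), again without overlap. KIF20A (MKLP2), the kinesin-6 that carries the chromosomal passenger complex to the midzone, had 126, 121 and 125 CPM in control and 134, 137 and 114 CPM with talazoparib. Its groups overlapped and it did not pass the test (log2 fold change 0.05 ± 0.08, SE, edgeR adjusted p = 0.64).

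Levels per length, as FPKM, showed that the largest falls were in scarce mitotic kinesins. KIF22, KIFC1, KIF20A and KIF2C, the 4 most abundant in control at 40.3 to 58.3 FPKM, include every mitotic member that did not fall. KIF14, KIF20B, KIF18A and KIF15 had mean control levels of 2.21, 1.84, 1.65 and 1.60 FPKM. The FPKM summed over the 12 was 268.0, 279.5 and 280.3 in the controls and 271.8, 280.9 and 260.8 with talazoparib. The sums overlapped, at 276 ± 6.88 and 271 ± 10.0 FPKM (SD, n = 3 each), and with TMM scaling they were 269 ± 2.86 and 279 ± 16.8. The share held by the 4 most abundant members moved from 69.8 ± 2.39% to 81.3 ± 1.34% (SD, n = 3 each), with no overlap. The deposited FPKM sums thus differed by less than the library spread. The TMM-scaled sums differed in the other direction, by more than the control SD and less than the talazoparib SD. The make-up shifted toward the abundant members in these levels, which were not corrected for the GC and length trend.

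**Figure D2:**
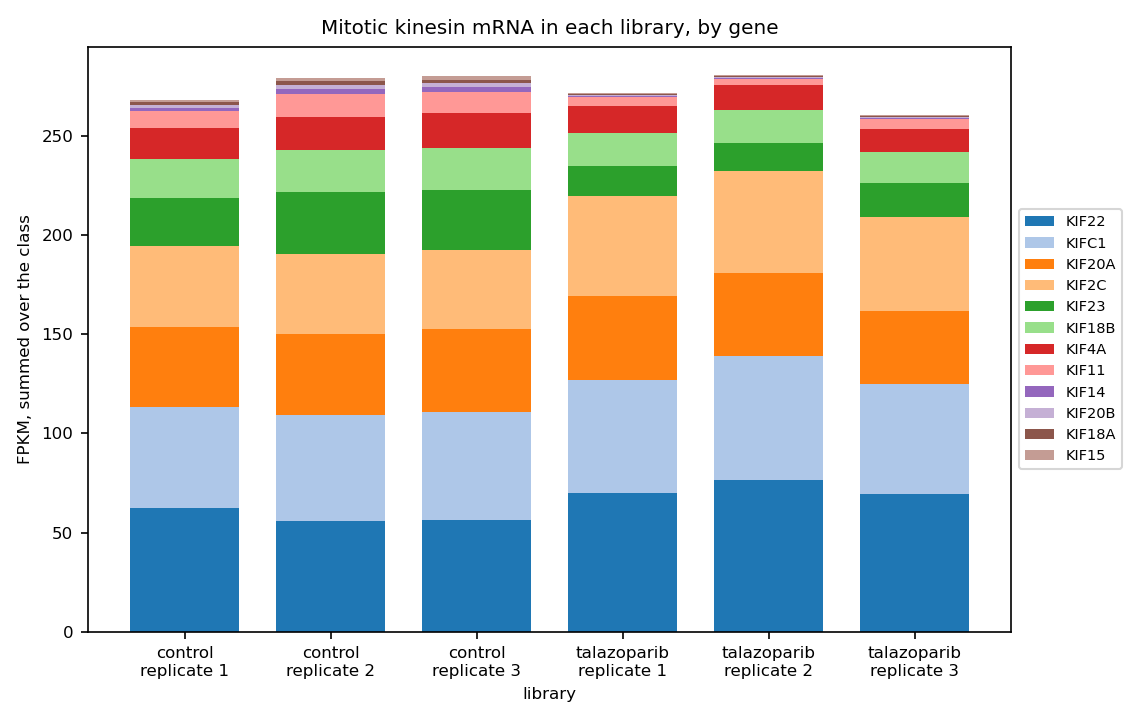
FPKM of the 12 mitotic kinesin genes stacked in each of the 6 libraries (x axis, library; y axis, summed FPKM), ordered from the most abundant in control at the bottom. The stacks reach 261 to 281 FPKM in both groups, while the top bands, from KIF23 upward, are thinner in the 3 talazoparib libraries.

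Cargo-transport kinesins were split more evenly. Of the 16, 7 fell, 5 rose and 4 missed the threshold, where 29.9% of all genes tested fell and 26.8% rose. The median log2 fold change of the 16 was -0.18, in a range from -1.48 to 0.45, and it was -0.26 without control replicate 1. With the light chains and KIFAP3 left out, 7 fell and 4 rose. Their median was then -0.71, lower than the mitotic median of -0.60. With KIF2A counted as mitotic, the mitotic median was -0.84. The order of the class medians thus depended on how members were classed. The difference between 8 of 12 mitotic and 7 of 16 transport members lower was not tested.

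Kinesin-1, the main plus-end motor of vesicles and mitochondria, is a tetramer of heavy and light chains. The ubiquitous heavy chain KIF5B (chr10:32009010-32056431, minus strand, GRCh38) had 93.4, 130 and 124 CPM in control and 46.0, 34.7 and 43.9 CPM with talazoparib. All treated libraries lay below the controls, and it fell by 1.48 ± 0.14 on the log2 scale (SE, edgeR adjusted p = 1.40e-05), a 2.79-fold fall. The heavy chain KIF5C, best known from neurons, had 12.5, 16.8 and 13.2 CPM in control and 8.54, 5.08 and 7.96 CPM with talazoparib. It fell by 0.98 ± 0.19 on the log2 scale (SE, edgeR adjusted p = 0.00119), without overlap. Of the light chains, which bind the cargo, none of KLC1, KLC2 and KLC4 was called lower in this fit. KLC1 was at 155 ± 3.96 CPM in control and 151 ± 7.28 with talazoparib (SD, n = 3), and KLC2 at 102 ± 6.96 and 117 ± 9.38, and neither passed (edgeR adjusted p = 0.687 and 0.0639). KLC4 had 15.9, 13.3 and 14.6 CPM in control and 19.6, 21.0 and 19.2 CPM with talazoparib. It rose by 0.45 ± 0.11 on the log2 scale (SE, edgeR adjusted p = 0.00519), with all treated libraries above the controls. Summed FPKM of KIF5B and KIF5C over that of KLC1, KLC2 and KLC4 was 0.303, 0.446 and 0.413 in the controls and 0.149, 0.1001 and 0.147 with talazoparib. This ratio, chosen after the values were seen and given without a test, moved from 0.387 ± 0.0753 to 0.132 ± 0.0276 (SD, n = 3 each).

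Kinesin-2, the motor of intraflagellar and vesicle transport, pairs KIF3A with KIF3B or KIF3C and joins them to cargo through KIFAP3. KIF3B had 57.1, 61.9 and 68.9 CPM in control and 35.5, 34.6 and 34.3 CPM with talazoparib, and it fell by 0.85 ± 0.09 on the log2 scale (SE, edgeR adjusted p = 1.98e-05). The 3 treated libraries were nearly alike and all below the controls. KIF3A, a scarce transcript, moved from 6.19 ± 1.499 to 2.24 ± 0.613 CPM (SD, n = 3), a 2.75-fold fall (edgeR adjusted p = 0.000309). KIF3C rose instead, from 29.2, 28.8 and 27.8 CPM in control to 39.7, 40.7 and 34.1 CPM with talazoparib (log2 fold change 0.41 ± 0.10, SE, edgeR adjusted p = 0.00304). KIFAP3 was at 9.39 ± 1.01 CPM in control and 7.55 ± 0.544 with talazoparib (SD, n = 3) and did not pass (edgeR adjusted p = 0.0758). On the FPKM scale KIF3C stood at 0.504 ± 0.0597 of KIF3B in control and 1.20 ± 0.102 with talazoparib (SD, n = 3). The order of these partners thus changed in FPKM without correction for GC content, which was 56.0% for KIF3C and 47.6% for KIF3B. With the GC and length trend removed, the log2 fold changes of KIF3C and KIF3B were smaller, at 0.24 and -0.60. With the GC trend alone removed, KIF3C (0.15) did not pass. The ratio was not recomputed in these fits. Without correction the ratio was 0.561, 0.510 and 0.442 in the controls and 1.23, 1.29 and 1.09 in the treated libraries. It too was chosen after the values were seen.

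Kinesin-3 motors carry synaptic vesicle precursors, endosomes and dense-core vesicles. KIF1B, a mitochondrial and vesicle motor, had 63.3, 79.5 and 73.2 CPM in control and 37.6, 33.4 and 34.4 CPM with talazoparib. It fell by 1.04 ± 0.10 on the log2 scale (SE, edgeR adjusted p = 1.18e-05), and the groups were far apart. KIF13A, an endosome motor, had 39.4, 51.8 and 50.1 CPM in control and 25.3, 21.9 and 22.4 CPM with talazoparib, a 2.03-fold fall (edgeR adjusted p = 2.82e-05). KIF16B, which binds early endosomes through a PX domain, had 7.95, 9.39 and 8.76 CPM in control and 6.77, 4.78 and 6.09 CPM with talazoparib. It fell by 0.56 ± 0.16 on the log2 scale (SE, edgeR adjusted p = 0.00987), with no overlap. KIF1C, a Golgi and integrin vesicle motor at chr17:4997948-5028401 on the plus strand, had 382, 349 and 362 CPM in control and 466, 522 and 439 CPM with the drug. It rose by 0.38 ± 0.08 on the log2 scale (SE, edgeR adjusted p = 0.00164), opposite to its relative KIF1B. KIF13B was at 45.1 ± 2.21 CPM in control and 47.6 ± 4.75 with talazoparib (SD, n = 3; edgeR adjusted p = 0.501). The FPKM ratio of KIF1B to KIF1C moved from 0.0948 ± 0.0148 to 0.0355 ± 0.00432 (SD, n = 3).

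The minus-end transport kinesins KIFC2 and KIFC3 both rose. KIFC3, linked to adherens junctions and apical transport in epithelia, had 413, 380 and 391 CPM in control and 490, 511 and 473 CPM with talazoparib (log2 fold change 0.32 ± 0.07, SE, edgeR adjusted p = 0.00256). KIFC2, best known from neurons, had 27.1, 27.5 and 26.7 CPM in control and 34.99, 34.2 and 33.0 CPM with talazoparib (log2 fold change 0.33 ± 0.09, SE, edgeR adjusted p = 0.00713). In both genes every treated library exceeded every control. The KIFC2 call was lost without control replicate 3. With the GC trend alone removed, KIFC3 was called lower (log2 fold change -0.13) and KIFC2 (-0.15) did not pass. Summed over the 16 transport members, FPKM was 216 ± 5.77 in control and 216 ± 5.45 with talazoparib (SD, n = 3). With TMM scaling the sums were 211 ± 0.851 and 221 ± 10.7, a wider difference, though talazoparib replicate 3 lay among the controls. The 4 most abundant transport members held 68.5 ± 2.61% of it in control and 78.4 ± 1.48% with talazoparib.

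Of the 7 ciliary, centriolar and microtubule-end kinesins, 3 fell and 0 rose, where 29.9% of all genes tested fell and 26.8% rose. The median log2 fold change of the 7 was -0.24. KIF21A, which restrains microtubule growth at the cell cortex, had 17.3, 23.6 and 21.4 CPM in control and 8.54, 5.37 and 7.83 CPM with talazoparib. It fell by 1.52 ± 0.18 on the log2 scale (SE, edgeR adjusted p = 4.10e-05), and its groups were widely separated. KIF2A, a depolymerising kinesin-13 of spindle poles and neurites, had 24.1, 32.8 and 27.9 CPM in control and 14.9, 9.52 and 12.2 CPM with talazoparib. It fell 2.31-fold (edgeR adjusted p = 0.000117), while its relative KIF2C rose, and the FPKM ratio of KIF2A to KIF2C moved from 0.0883 ± 0.0160 to 0.0294 ± 0.00703 (SD, n = 3). KIF24, which remodels centriolar microtubules and restrains cilium assembly, had 26.2, 30.3 and 31.5 CPM in control and 25.0, 25.3 and 22.0 CPM with talazoparib. Its groups were separate but close, at a log2 fold change of -0.28 ± 0.11 (SE, edgeR adjusted p = 0.0396), and that call was lost on leaving out control replicate 2, control replicate 3, talazoparib replicate 1 or talazoparib replicate 3. The remaining 4 did not pass and were scarce. The Hedgehog regulator KIF7 was at 1.997 ± 0.188 CPM in control and 2.16 ± 0.298 with talazoparib (SD, n = 3), and KIF9, a motor of motile cilia, at 2.87 ± 0.0861 and 2.83 ± 0.264. KIF21B was at 2.15 ± 0.350 and 2.04 ± 0.296 CPM, and KIF27 at 3.03 ± 0.499 and 2.57 ± 0.255. At these levels a small change would not have been detectable.

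The direction of a member went with the base composition of its mRNA. The 8 members that rose had a GC content of 50.4% to 67.8%, and 17 of the 18 that fell were under 50%, with KIF18B (58.4%) as the exception. At under 50% GC, 17 of 20 members fell and 0 rose, and among all genes of that range 55.1% fell and 5.78% rose. At 50% GC or more, 1 of 15 members fell and 8 rose, and among all genes 6.003% fell and 51.4% rose. This split was chosen after the values were seen. Under 50% GC, 7 of 8 members fell in the mitotic and in the transport class. At 50% or more, 1 of 4 mitotic members fell and 3 rose, and 0 of 8 transport members fell and 5 rose. The difference between the classes was not tested. Median GC content was 44.3% for the mitotic and 51.1% for the transport class. Across genes, which are not independent replicates and share these 6 libraries, Pearson's r between log2 fold change and GC content was 0.82 over the 35 members (Spearman's coefficient 0.83) and 0.64 over 13468 genes (0.69). With log2 length, r was -0.82 over the mitotic members and -0.34 over all 35.

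**Figure D3:**
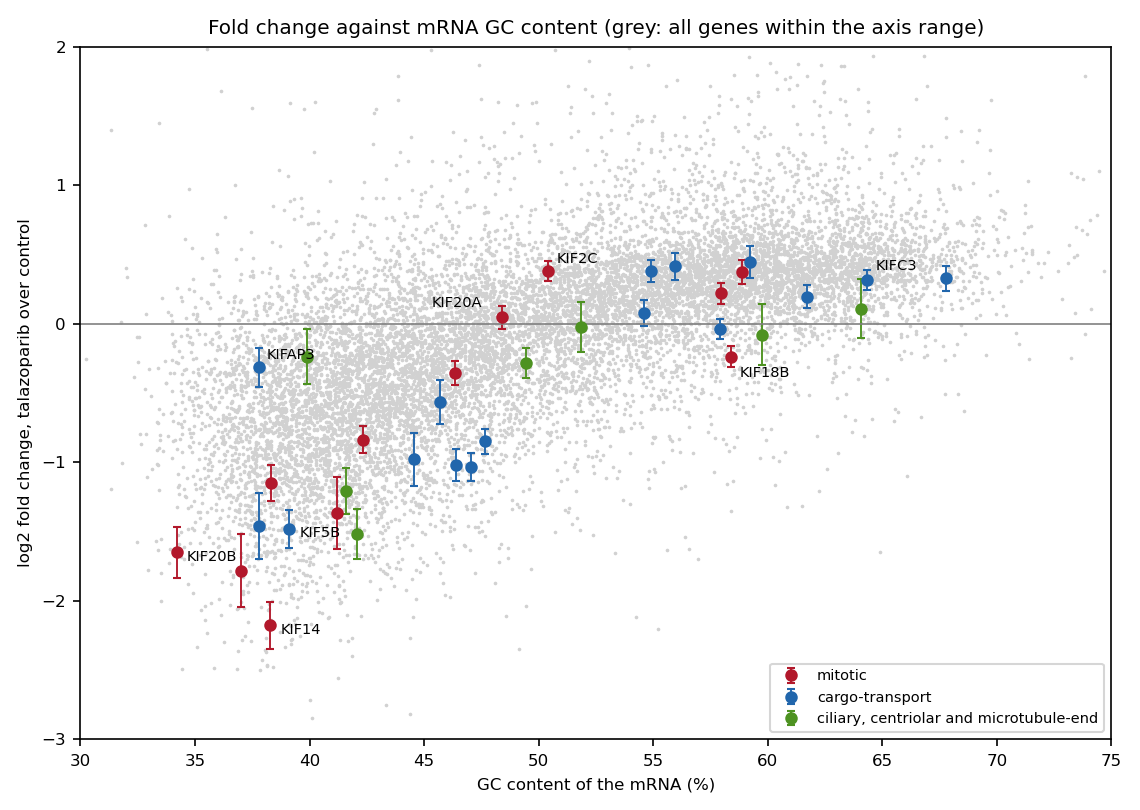
Log2 fold change of talazoparib over control (y axis) against the GC content of the mRNA in percent (x axis), for the kinesin members (coloured by class, bars are SE) and all other genes with both values (grey points). Members under 50% GC lie mostly below 0 and members above it mostly above 0, as the grey points do, with KIF18B at 58.4% GC below 0.

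The comparison was therefore also made with the trend of each library over GC content and length taken out, by an offset in the same edgeR test. In that fit 22.5% of all genes fell and 22.2% rose. Of the 18 members that fell, 15 were still called lower, and of the 8 that rose 4 were still called higher. Mitotic members then counted 8 lower, 1 higher and 3 not passing, with a median log2 fold change of -0.41. KIF14 stood at -1.29, KIF18A at -1.16, KIF20B at -0.89, KIF15 at -0.71, KIF11 at -0.47 and KIF23 at -0.36, each smaller than before and still called lower. KIF18B, the GC-rich member that fell, was the mitotic member with a larger fall in this fit, -0.51 against -0.24. KIF2C was the mitotic member still called higher, at 0.31, while KIF22 (-0.04) and KIF4A (-0.13) no longer passed and KIFC1 was called lower at -0.14, a call lost when the replicate number was added as a block.

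Transport members in that fit counted 8 lower, 4 higher and 4 not passing, with a median of -0.13. KIF5B stood at -0.73, KIF3A at -0.63, KIF3B at -0.60, KIF13A at -0.54, KIF1B at -0.42 and KIF5C at -0.40, all still called lower, though KIF5C, like the mitotic KIF15, lost that call when the replicate number was added as a block. KIF1C kept its rise at 0.38, and KIF3C (0.24) and KIFC3 (0.15) were still called higher. Neither KIF3C nor KIFC3 was called higher with the GC trend alone removed. The light chains KLC1 (-0.18) and KLC2 (-0.20) were now called lower, KIF16B (-0.08), KLC4 (0.06) and KIFC2 (-0.09) no longer passed, and KIFAP3 (0.37) was called higher. Among the others KIF21A (-0.87) and KIF2A (-0.43) still fell, and KIF27 was called higher at 0.67. Whether the GC and length trend comes from library handling or from the cells was not tested.

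**Figure D4:**
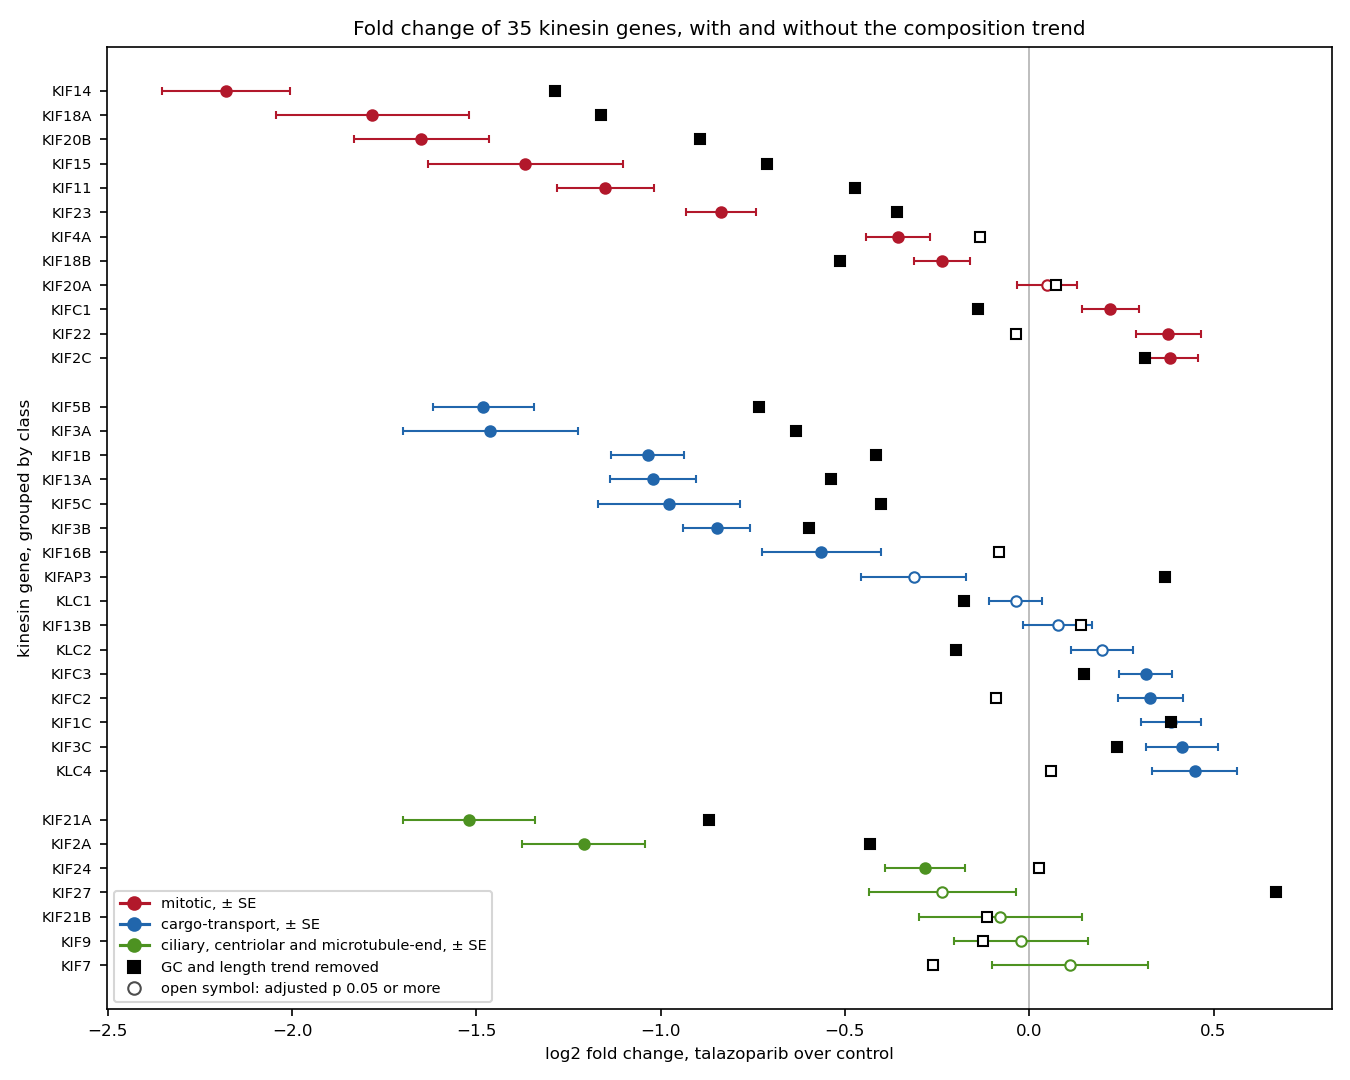
Log2 fold change of talazoparib over control (x axis) of each kinesin gene (y axis, grouped by class) without a trend correction (coloured circles, bars are SE) and with the GC and length trend removed (black squares). Filled symbols passed an adjusted p of 0.05 and open symbols did not. The squares of KIF14, KIF18A and KIF20B lie nearer to 0 than their circles and still well below it, while that of KIF18B lies further from 0 than its circle.

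Among 13 other kinesins in the tables, 9 were tested, of which 2 fell and 2 rose, where 29.9% of all genes tested fell and 26.8% rose. CENPE, the kinetochore motor that brings stray chromosomes to the plate, moved from 12.4 ± 0.324 to 2.95 ± 0.837 CPM (SD, n = 3; edgeR adjusted p = 1.09e-05), a 4.19-fold fall close to that of KIF14. STARD9, a pericentriolar kinesin, moved from 19.8 ± 3.79 to 10.97 ± 0.656 CPM (edgeR adjusted p = 0.000415). The ciliary motor KIF17 rose from 2.18 ± 0.132 to 3.76 ± 0.619 CPM (edgeR adjusted p = 0.00426) and the light chain KLC3 from 1.98 ± 0.140 to 3.24 ± 0.274 (edgeR adjusted p = 0.00684). With the trend removed CENPE stood at -1.20 and STARD9 at -0.49, and neither KIF17 nor KLC3 passed.

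Partners and regulators of mitotic kinesins also moved in both directions. Of 16, 8 fell and 4 rose, where 29.9% of all genes tested fell and 26.8% rose. The median log2 fold change of the 16 was -0.30. ECT2, a cytokinesis factor that binds the centralspindlin of KIF23, moved from 97.8 ± 14.1 to 44.5 ± 7.59 CPM (SD, n = 3; edgeR adjusted p = 4.93e-05). The abscission scaffold CEP55 fell by 1.11 on the log2 scale, the spindle protein NUSAP1 by 0.99 and the kinastrin gene KNSTRN by 0.54, all called lower with the trend removed as well. The 4 that rose were the passenger complex genes BIRC5 (log2 fold change 0.38) and AURKB (0.29), the pole protein NUMA1 (0.33) and the kinase PLK1 (0.26). The AURKB and PLK1 calls were each lost without control replicate 2, control replicate 3, talazoparib replicate 1 or talazoparib replicate 2. The PLK1 groups overlapped. The passenger complex genes INCENP (-0.10) and CDCA8 (0.17) did not pass. Of the 4 that rose, BIRC5 and NUMA1 were called higher with the trend removed, AURKB did not pass and PLK1 was called lower at -0.16. Of 8 general marks of proliferation, 4 fell and 1 rose. CCNA2 (cyclin A2) moved from 78.5 ± 2.10 to 46.7 ± 8.23 CPM, TOP2A fell by 0.93 and MKI67 by 1.21 on the log2 scale, and the replication licensing gene MCM2 rose by 0.43. With the trend removed 2 of the 8 were called lower, CCNA2 (-0.33) and MKI67 (-0.72), and 2 higher, CDK1 (0.31) and CCNB1 (0.30), while TOP2A (-0.18) and MCM2 (0.08) did not pass. The part of these changes in the kinesin result was not tested.

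A list of adaptors and other partners of transport kinesins showed 8 falls and 5 rises among 16 genes. The share of all genes tested was 29.9% for falls and 26.8% for rises. The median log2 fold change of the list was -0.26. The kinesin-1 receptor KTN1 (kinectin) stood at -1.20, the KIF5 cargo KIDINS220 at -1.05, the mitochondrial GTPase RHOT1 (Miro1) at -0.85 and its adaptor TRAK2 at -0.83. Among the 5 that rose were MAP7D1 (0.49), PLEKHM2 (0.48), MAPK8IP2 (0.48) and RHOT2 (0.24). With the trend removed 2 genes of this list were called lower and 0 higher: KIDINS220 at -0.25 and RHOT2 at -0.21. In that fit 22.5% of all genes were called lower and 22.2% higher.

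Cytoplasmic dynein and dynactin, the minus-end machinery that opposes these kinesins, showed 7 falls and 6 rises among 21 genes. The share of all genes tested was 29.9% for falls and 26.8% for rises. The median log2 fold change of the list was -0.02. The 4 with the smallest adjusted p were DCTN6 (-1.07), DCTN4 (-0.67), the dynein regulator PAFAH1B1 (-0.53) and DCTN3 (0.59). With the trend removed, 3 genes of this list were called lower and 10 higher, where 22.5% of all genes were lower and 22.2% higher. DCTN6 (-0.67) still fell and DCTN3 (0.20) still rose, DCTN4 (-0.11) no longer passed and PAFAH1B1 was called higher at 0.20. Of 11 tubulins, which form the microtubule track or, as TUBG1 (gamma-tubulin), nucleate it, 7 rose and 0 fell, with a median of 0.27. TUBA1A rose from 63.6 ± 3.81 to 113 ± 3.85 CPM (SD, n = 3; edgeR adjusted p = 1.16e-05) and TUBB3 from 53.8 ± 2.60 to 86.8 ± 8.53 (edgeR adjusted p = 6.31e-05). TUBA4A and TUBA1C rose by 0.49 and 0.37 on the log2 scale. With the trend removed, 3 tubulins were called higher, among them TUBA1A (0.61), and 6 lower. All 11 tubulins had a GC content of 51.6% or more.

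Some counts could include reads of a neighbour or lack reads that lie on both genes, since the strand setting is not given in the sources used here. KIF20A, KIF18A, KIF4A, KIF7, KIF9, KIF24, KIFC2, KLC1 and KLC4 overlap a gene on the opposite strand in GENCODE 29, and KIF2A overlaps IPO11 on the same strand. KIF18A overlaps METTL15, which had a mean of 213 counts against 173 for KIF18A itself. Other members were outnumbered further. KLC4 had a mean of 678 counts against 3560.5 for CUL7 and 2845 for MRPL2, and KIF24 had 1056 against 3379.5 for UBAP1. KIF7 had 82 against 1645 for TICRR, and KIF9 had 112.5 against 978 for KLHL18. KIF4B is a near copy of KIF4A and was at 0.523 ± 0.324 CPM in control and 0.459 ± 0.166 with talazoparib (SD, n = 3). KIF3A and KIF18B have annotated pseudogenes.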

How the data were processed

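TRIzol extraction and VAHTS Universal V6 libraries are given per the labels' protocols. Per the submitters' processing notes, the tools were Trimmomatic, HISAT2, Cufflinks and HTSeq with GRCh38. Tool versions, annotation and strand setting were not given in the sources used here. Deposited by the authors, the count table held whole-number counts per gene symbol. In the authors' deposited FPKM table each value is that count over a gene length and the column total, which gave the lengths.

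The test was edgeR 4.0.16 under R 4.3.3 (filterByExpr with a minimum count of 10, TMM, robust quasi-likelihood, Benjamini-Hochberg at 0.05). SE is the absolute log2 fold change over the square root of F. GC content came from the longest GENCODE 29 transcript, protein-coding where there was one, for 93.2% of genes tested. The trend over GC content and log2 length was modelled by natural splines (5 degrees of freedom) and removed as an offset. DESeq2 1.42.0, limma 3.58.1, other scalings and filters, the replicate block and leaving out each library were alternatives. The script was tested on simulated counts.

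The members and gene lists were chosen with earlier results of these data known. Values per library are given for all mitotic members and for members past the test with a mean of at least 5 CPM. From other lists of genes, up to 4 genes with the smallest adjusted p are named (cell type markers are given as levels), plus any 5 or fewer that moved against their list. Same-numbered libraries did not deviate together, and no 2 libraries agreed within sampling noise.

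Some genes on the fixed lists are not reported here.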

Additional observations from a re-analysis of the deposited data

How the results depend on the processing

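Of the 26 members called, 23 kept their call on leaving out each library in turn, and DESeq2, limma-voom and median-of-ratios scaling changed no member's call. KIFC1 lost its call with total count scaling and KIF24 with upper quartile scaling. With the replicate number as a block (replicate block, the numbers share no source in the labels), 7580 genes were called, 7 mitotic members were lower and 2 higher, and KIF18B, KIF24 and KIFC1 lost their calls. Leaving out 1 library gave transport medians of -0.26 (without control replicate 1) to -0.16, and 6353 to 8549 genes called. A 1.5-fold threshold called 1805 genes, 1462 lower and 343 higher, with 0 mitotic and 0 transport members higher. At a mean of at least 5 CPM the class medians were -0.39 (mitotic), -0.075 (transport) and -1.25 (the others), since scarce members are left out. On log2(FPKM + 1) the last was -0.068. With KIF2A counted as mitotic, that median was -0.84. Without the light chains and KIFAP3, the transport median was -0.71. With the length trend alone removed, 8 transport members were higher, the transport median was 0.055 and that of the other 7 was 0.24, KIF24 was at 0.24 and KLC1 at 0.33. With the GC trend alone removed, 1 mitotic and 2 transport members were higher, and the mitotic median was -0.33. In that fit KIFC1 was at -0.11, KIFC2 at -0.15, KIFC3 at -0.13, KIFAP3 at 0.45 and KLC2 at -0.22. Of these, KIFC3 and KLC2 passed as lower and KIFAP3 as higher. With both removed, 1 mitotic and 1 other member were higher, the medians were -0.41 (mitotic) and -0.12 (the others), and KIF22 was at -0.037, KIF24 at 0.026, KIF27 at 0.67, KIFC1 at -0.14, KIFC2 at -0.092, KIFAP3 at 0.37 and KLC2 at -0.20. With both removed and the replicate block, 5105 genes were called, 2562 lower and 2543 higher, 6 mitotic and 7 transport members were lower (KIF15, KIF5C and KIFC1 no longer passed), 1 mitotic and 1 other member were higher, the mitotic median was -0.41, and the same genes were at -0.037, 0.026, 0.68, -0.14, -0.090, 0.37 and -0.20. The cause of these moves was not tested. At 1 to 5 CPM, depth limits what change could be seen.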
